A study of Mus musculus with 6 samples.

Results

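A set of 8 genes of the acute phase and of inflammatory leukocyte adhesion was followed here, Lcn2, Hp, Il1rn, Saa3, Ptx3, Il6, Vcam1 and Icam1, in RNA sequencing libraries labelled as left ventricle from mice in which HFpEF, heart failure with preserved ejection fraction, had been induced. All 8 symbols were listed among the 14408 genes of the deposited table. They were picked with their L-proline and PBS values already known, so their differences between the groups are given with no p, and how many passed the threshold used for all genes is given as a description only. The treated mice received L-proline at 300 mg/kg per day by intraperitoneal injection for 4 to 8 weeks (3 libraries), and the others received PBS as vehicle (3 libraries). Every mouse was a male C57BL/6J, 8 weeks old at the start, and in both groups the model had been made with a high-fat diet plus L-NAME, a blocker of nitric oxide synthases, at 0.5 g/L in the drinking water for 8 to 12 weeks. No library came from mice without the model. The labels do not say whether a library came from 1 animal or from a pool, so every error given is the spread between libraries, which may be technical.

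The acute phase response is the change in secreted proteins that follows infection or injury. Interleukin 1 and interleukin 6 drive it through the transcription factors NF-κB, C/EBP and STAT3, in the liver and also locally in stromal and myeloid cells. Its products bind iron carriers, haemoglobin, lipids or microbes, and Vcam1 and Icam1 encode cell surface proteins that leukocyte integrins grip on inflamed endothelium and stroma.

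Depth and tissue of origin bear on every value. Values are FPKM, fragments scaled by gene length and by library total, and whole fragments could be recovered from them for 14407 genes (tolerance 0.01 fragments), giving 34990473 to 37498030 fragments per library. Libraries of 1 group differed by more than counting noise, as the chi-square of their fragments divided by its degrees of freedom was 7.81 to 77.9. Between the groups it was 55.3 to 138.9. L-proline 1 and L-proline 3 (77.9) thus differed more than L-proline 2 and PBS 2 (55.3). With limma, 2056 of 10500 tested genes (19.6%) passed an adjusted p of 0.05, 788 higher and 1268 lower in L-proline. Quantile normalization gave 1079 higher and 1015 lower, and under median-of-ratios scaling 1003 were higher and 966 lower. Without PBS 1 the count was 976 and without PBS 3 it was 874. Heart muscle transcripts did not match the labelled tissue: 7 of 13 cardiomyocyte markers were listed, Ttn, Ryr2, Myl2 and Myh7 had group means of at most 0.0497 FPKM, and the sum of the list was 16.8 to 19.96 FPKM in L-proline and 34.8 to 36.5 FPKM in PBS, mostly Tnnt2. Nkx2-5 had means of 3.34 FPKM in L-proline and 3.43 FPKM in PBS and overlapped. Tnni3 had 0.0224 FPKM in L-proline and 0.177 FPKM in PBS, without overlap. Fibroblast markers (8 of 11 listed) summed to 2814 to 3187 FPKM in L-proline and 2072 to 2125 FPKM in PBS, mostly from Col3a1 (mean 1823 FPKM in L-proline, 1226 FPKM in PBS) and Col1a2 (798 FPKM in L-proline, 615 FPKM in PBS). Of the 8, Pdgfra was lower in L-proline without overlap (5.97 FPKM in L-proline, 7.84 FPKM in PBS; limma, adjusted p = 0.0215), and Pdgfrb and Postn overlapped.

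Promoter sequence was examined as something that the choice of genes did not use. The windows are the 250 bases before the annotated transcript start in RefSeq on GRCm38.p6, an older build than the GRCm39 of the processing notes, and they were found for Lcn2, Il1rn, Ptx3, Il6, Saa3 and Icam1, not for Hp and Vcam1. Searched on both strands were C/EBP (TTGCNNAA), STAT (TTCNNNGAA), AP-1 (TGANTCA) and the NF-κB decamer consensus, and no match overlapped another. Shown are the genes with the lower L-proline values that had a window (Lcn2, Il1rn, Ptx3) and, for contrast, both genes whose groups overlapped (Il6, Saa3), with matches in capitals.
Lcn2, chr2:32387740-32387989, minus strand: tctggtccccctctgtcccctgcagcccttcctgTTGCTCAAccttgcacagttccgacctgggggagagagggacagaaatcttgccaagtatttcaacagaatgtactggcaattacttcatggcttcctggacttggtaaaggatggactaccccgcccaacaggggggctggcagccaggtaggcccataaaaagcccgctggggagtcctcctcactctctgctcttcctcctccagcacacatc
Il1rn, chr2:24336610-24336859, plus strand: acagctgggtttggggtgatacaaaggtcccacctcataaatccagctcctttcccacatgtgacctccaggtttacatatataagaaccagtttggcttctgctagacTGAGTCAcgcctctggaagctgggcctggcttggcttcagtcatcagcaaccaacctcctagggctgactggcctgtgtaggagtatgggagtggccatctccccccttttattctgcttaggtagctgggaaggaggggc
Ptx3, chr3:66219637-66219886, plus strand: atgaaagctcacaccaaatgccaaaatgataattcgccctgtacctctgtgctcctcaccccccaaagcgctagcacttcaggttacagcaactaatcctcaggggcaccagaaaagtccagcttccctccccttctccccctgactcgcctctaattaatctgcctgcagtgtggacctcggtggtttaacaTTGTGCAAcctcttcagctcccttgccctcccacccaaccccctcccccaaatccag
Il6, chr5:30012864-30013113, plus strand: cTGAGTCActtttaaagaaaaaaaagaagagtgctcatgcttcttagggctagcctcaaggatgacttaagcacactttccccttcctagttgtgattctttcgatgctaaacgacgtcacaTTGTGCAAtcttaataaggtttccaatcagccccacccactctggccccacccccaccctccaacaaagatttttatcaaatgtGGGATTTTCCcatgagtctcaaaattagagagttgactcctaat
Saa3, chr7:46715677-46715926, minus strand: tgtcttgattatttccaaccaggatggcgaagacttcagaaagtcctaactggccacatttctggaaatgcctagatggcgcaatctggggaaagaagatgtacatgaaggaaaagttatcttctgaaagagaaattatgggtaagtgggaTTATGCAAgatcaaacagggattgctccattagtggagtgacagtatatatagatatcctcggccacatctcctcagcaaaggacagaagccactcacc

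A C/EBP match lay in the windows of 4 of the 6 genes, Lcn2, Ptx3, Il6 and Saa3. Counted by window, as Il1rn had 3, this was 4 of 8, against 9.56% of all 32851 mouse windows of the same length. The matched letters were TTGCTCAA in Lcn2, TTGTGCAA in both Ptx3 and Il6, and TTATGCAA in Saa3, in each case on one strand or the other. The NF-κB decamer consensus was matched in Il6 (GGGATTTTCC, 44 to 35 bases before the start) and in none of the other 5 genes, against 7.25% of windows. Only exact matches were counted, so an NF-κB site that departs from the consensus would have been missed. AP-1 matches lay in Il6 and in the first of 3 Il1rn windows (6.75% of windows), and a STAT match lay in Icam1, TTCCCGGAA (7.02% of windows). Genes with lower L-proline values and genes whose groups overlapped both held C/EBP matches. A match describes letters in this window and is not a measured binding site.

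**Figure D1:**
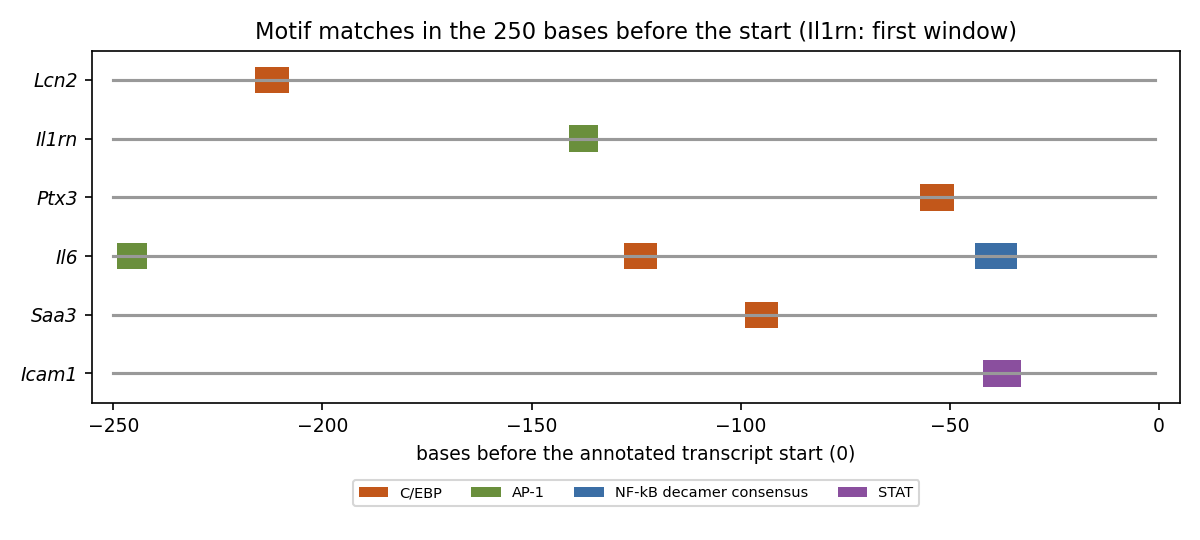
Positions of motif matches (coloured boxes, by motif) along the 250 bases before the annotated start of 6 genes, with the x axis in bases before the start. C/EBP matches are seen in 4 of the 6 windows, and Il6 is the gene with 3 kinds of match.

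Among the secreted binding proteins, Lcn2 and Hp were lower in L-proline and Saa3 was not separated. Lcn2 encodes lipocalin 2, which binds the siderophores that bacteria use to take up iron. It stood at 5.08, 7.04 and 7.84 FPKM in L-proline 1, 2 and 3, against 27.7, 20.4 and 23.8 FPKM in PBS 1, 2 and 3. Every L-proline library lay below every PBS library, and the groups were far apart compared with the spread inside each. The mean was 6.65 ± 1.42 FPKM in L-proline and 24.0 ± 3.62 FPKM in PBS (SD, n = 3 each), a ratio of 0.278 and a log2 fold change of -1.71 ± 0.16 (SE) on the log2(FPKM + 1) scale, the largest in size of the 8 on that scale. It rested on 159 to 246 fragments per library in L-proline and 626 to 885 in PBS.

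Haptoglobin, encoded by Hp, captures free haemoglobin so that its iron is not lost. Its levels were 9.62, 9.94 and 14.3 FPKM in L-proline, against 32.8, 33.9 and 30.3 FPKM in PBS, with no overlap. L-proline 3 was the highest of its group for both Lcn2 and Hp. Means were 11.3 ± 2.61 FPKM in L-proline and 32.3 ± 1.85 FPKM in PBS, a ratio of 0.349 and a log2 fold change of -1.46 ± 0.14. In bulk RNA, fewer cells that make a transcript and less transcript per cell cannot be told apart, and this holds for every gene below.

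Saa3, the mouse serum amyloid A gene that is made mainly outside the liver, was by far the most abundant of the 8, at the 99.7 percentile of all listed genes by mean FPKM. Its levels were 1259, 1001 and 1666 FPKM in L-proline, against 1231, 1012 and 905 FPKM in PBS. The groups overlapped, as L-proline 1 and 3 stood above all PBS libraries, L-proline 1 only just, while L-proline 2 lay below PBS 1 and PBS 2. Means were 1309 ± 335 FPKM in L-proline and 1049 ± 166 FPKM in PBS, and the log2 fold change of 0.30 ± 0.18 was the only positive one among the 7 genes above the filter on low values (mean FPKM of at least 1). Over the alternative settings it ran from 0.11 to 0.48. Lcn2 and Hp were lower in L-proline without overlap, while the groups of Saa3 were not separated, so no direction is read for it.

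Ptx3 encodes the long pentraxin 3, a soluble pattern recognition protein made at the site of inflammation by stromal and myeloid cells. It was measured at 47.3, 35.3 and 46.6 FPKM in L-proline, against 89.6, 74.3 and 77.4 FPKM in PBS. The highest L-proline value lay well under the lowest PBS value. Means were 43.1 ± 6.76 FPKM in L-proline and 80.4 ± 8.09 FPKM in PBS, a ratio of 0.535 and a log2 fold change of -0.89 ± 0.13, with 2372 to 3337 fragments per library in L-proline and 5128 to 6456 in PBS.

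**Figure D2:**
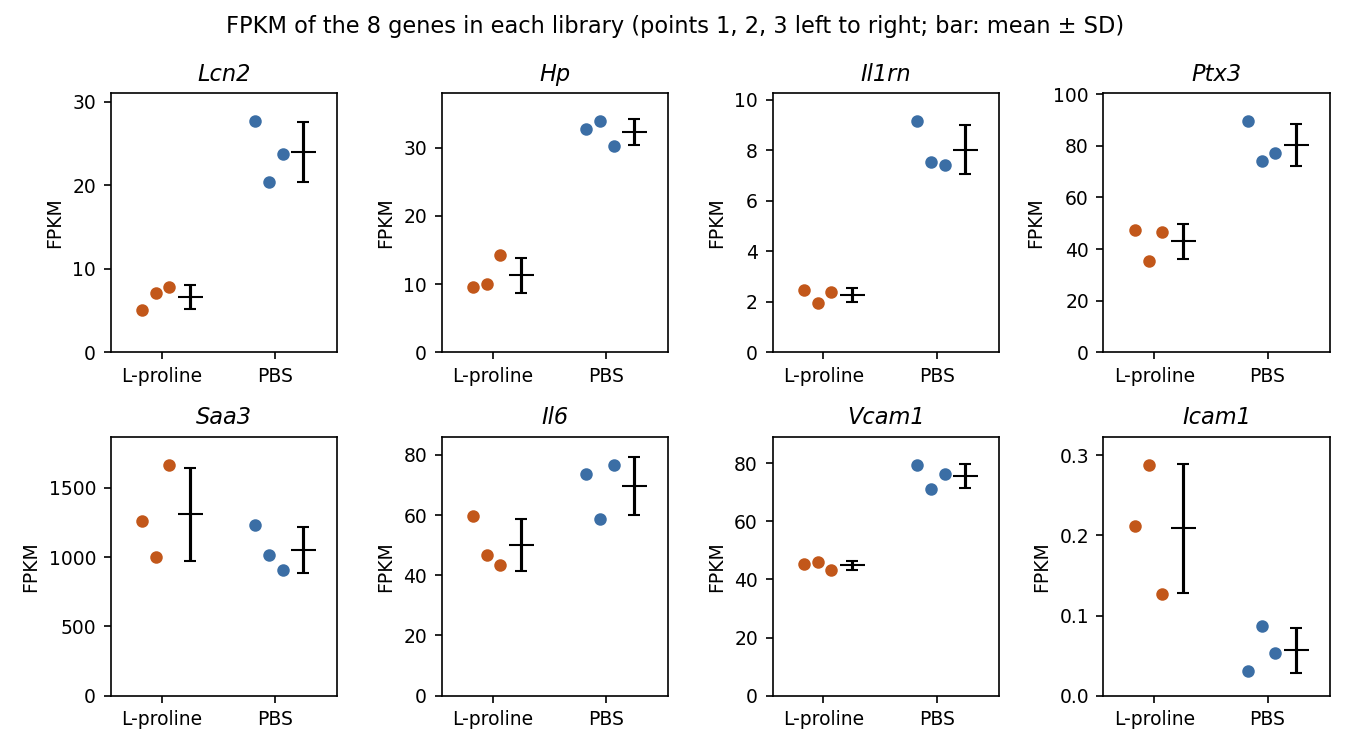
FPKM (y axis, linear, from 0) of each of the 8 genes in the L-proline and PBS libraries, each point a library and the black bar the mean ± SD. The points of Lcn2, Hp, Il1rn, Ptx3 and Vcam1 are lower in L-proline without overlap, those of Saa3 and Il6 overlap, and Icam1 is below 0.3 FPKM throughout.

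Of the cytokine genes, Il1rn was lower in L-proline and Il6 was lower on average with overlapping groups. Il1rn encodes the interleukin 1 receptor antagonist, which occupies the interleukin 1 receptor without signalling. Its values were 2.47, 1.94 and 2.39 FPKM in L-proline, against 9.15, 7.51 and 7.40 FPKM in PBS, so that all 3 L-proline libraries were low and close together. Means were 2.27 ± 0.288 FPKM in L-proline and 8.02 ± 0.977 FPKM in PBS, a ratio of 0.283. The log2 fold change was -1.46 ± 0.11, and it was -1.78 with a pseudocount of 0.1 in place of 1.

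Il6 encodes interleukin 6, the cytokine that induces acute phase genes through the shared receptor subunit Il6st and STAT3. Its levels were 59.8, 46.8 and 43.4 FPKM in L-proline, against 73.7, 58.8 and 76.7 FPKM in PBS. L-proline 1 lay just above PBS 2, and the remaining libraries of the groups did not cross. Means were 50.02 ± 8.66 FPKM in L-proline and 69.7 ± 9.57 FPKM in PBS, a ratio of 0.717 and a log2 fold change of -0.48 ± 0.14, inside the 5th to 95th percentile of all tested genes (-0.53 to 0.40).

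The adhesion genes Vcam1 and Icam1 were far apart in level. Vcam1, whose product binds integrin α4β1 on leukocytes, was 45.4, 46.0 and 43.2 FPKM in L-proline, against 79.5, 71.2 and 76.4 FPKM in PBS. The libraries of each group were close together, and the groups did not overlap. Means were 44.9 ± 1.50 FPKM in L-proline and 75.7 ± 4.19 FPKM in PBS, a ratio of 0.593 and a log2 fold change of -0.74 ± 0.07, backed by 5396 to 5661 fragments per library in L-proline and 8689 to 10126 in PBS.

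Icam1, whose product binds the leukocyte integrin made of Itgal and Itgb2, was close to the limit of detection. Its levels were 0.211, 0.288 and 0.127 FPKM in L-proline, against 0.0310, 0.0864 and 0.0529 FPKM in PBS, from 20, 26 and 12 fragments in L-proline and 3, 8 and 5 fragments in PBS. A count of 0 would still have allowed 0.0311 to 0.0333 FPKM, the value of 3 fragments of this gene (counting error only), so PBS 1 stood at that limit. The L-proline libraries were all higher, with 58 fragments in sum in L-proline and 16 in PBS, but the gene was under the filter and was not tested. The log2 fold change of 0.19 ± 0.05 understates the ratio of the means, 3.68, because the pseudocount of 1 exceeds both levels.

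Ranked by FPKM, which is scaled by gene length, Saa3 was followed by Ptx3, Vcam1 and Il6, then Hp, Lcn2, Il1rn and Icam1. Ptx3, Vcam1 and Il6 all lay between the 92.3 and 92.6 percentiles of mean FPKM, with overlapping ranges inside each group. Their means ran Il6, Vcam1, Ptx3 from high to low in L-proline, at 50.02, 44.9 and 43.1 FPKM, and Ptx3, Vcam1, Il6 in PBS, at 80.4, 75.7 and 69.7 FPKM. Hp, at the 79.1 percentile, stood above Lcn2, at the 72.2 percentile, in every library. Il1rn lay at the 48.1 percentile and Icam1 at the 14.7 percentile.

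Of the 7 genes above the filter, 5 had groups that did not overlap, all lower in L-proline. Among all tested genes 40.1% did not overlap, 24.0% lower and 16.0% higher in L-proline. The limma threshold was passed by 6 of the 7, all lower, where 19.6% of all tested genes passed, 12.1% lower and 7.50% higher. Nothing is read from these shares, since the genes were chosen on this comparison. Il6 missed the threshold in 9 of 15 alternative settings, which include leaving out L-proline 2, L-proline 3, PBS 1 or PBS 3, and in these 9 the count was 5. The median log2 fold change of the 7 was -0.89, beside -0.06 for all 10500 genes tested.

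**Figure D3:**
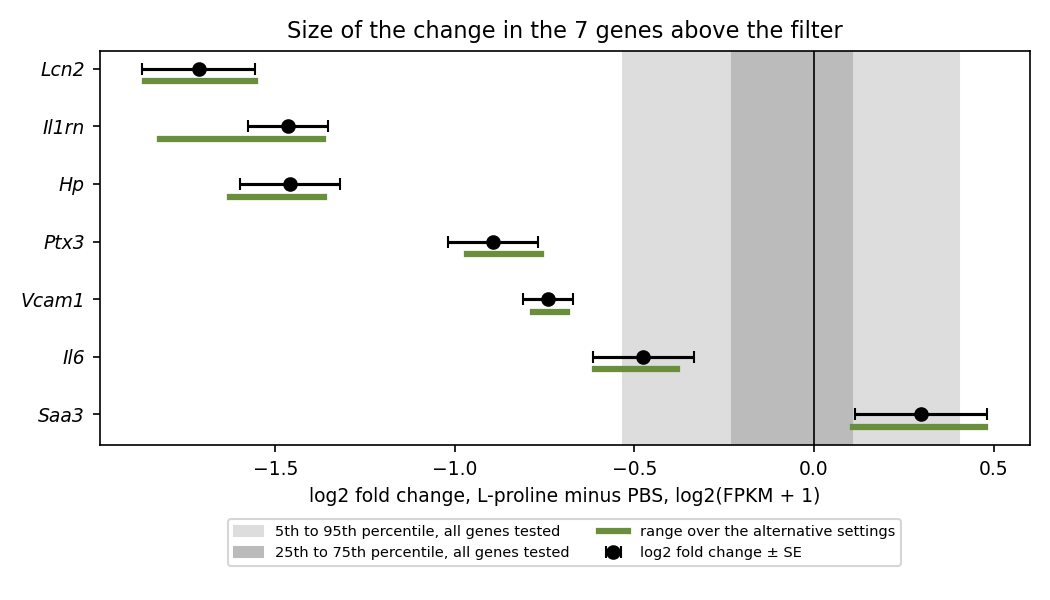
Log2 fold change, L-proline minus PBS, with its SE (black points and bars) for the 7 genes above the filter, the range over the alternative settings (green), and the 5th to 95th and 25th to 75th percentiles of all genes tested (grey). Lcn2, Il1rn, Hp, Ptx3 and Vcam1 lie left of the 5th percentile of -0.53, Il6 inside it, and Saa3 right of 0.

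Values were also compared between the genes across libraries. Over the 6 libraries the Pearson correlation of log2(FPKM + 1) between Lcn2, Hp, Il1rn, Ptx3 and Vcam1 was 0.92 to 0.98, a value that includes the difference between groups. Saa3 correlated with each of these and with Il6 at -0.53 to -0.25. After the group means were removed, the 5 genes correlated with each other at -0.57 (Hp with Vcam1) to 0.93 (Il1rn with Ptx3), and Lcn2 with Ptx3 at 0.08. Saa3 then correlated with Ptx3 at 0.82, Il1rn at 0.80, Hp at 0.78 and Lcn2 at 0.40, but with Il6 at -0.18 and Vcam1 at -0.20. Il6 correlated with Hp at -0.68. These are descriptions over 6 libraries that share their depth and scaling, with no p.

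Genes outside the 8 with the pattern most like each were found by the same correlation, 3 per gene. For Lcn2 they were Pde4a (0.997), Ccn1 (0.997) and Cadm4 (0.996). Hp was most like Ltbp3 (0.999), Ap2a2 and Rap1gds1 (both 0.998), and Il1rn most like Bhlhe40 (0.999), Abtb3 and Casp6 (both 0.998). Closest to Ptx3 were Tafazzin (0.998), Rac3 (0.997) and Prph (0.994). For Vcam1 they were Ltbp1 (0.999), Ptprn and Pask (both 0.998), and for Il6 Eeig2, Rasa2 (both 0.998) and Prkx (0.997). Saa3 had weaker neighbours, C77080 (0.983), the complement gene C1ra (0.981) and Zkscan17 (0.979). These values too carry no p.

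Other acute phase genes were mixed. Of 28 in the list, 20 were listed and 9 tested, and 4 fell, 1 rose and 4 did not pass, with a median log2 fold change of -0.48. The share called was 55.6%, beside 19.6% of all genes tested, a difference that was not tested. With no filter on low values 5 of 20 were lower and 4 higher, so the split in direction depended on the filter. Slpi, a secreted protease inhibitor of mucosa and stroma, was 80.01, 76.4 and 94.2 FPKM in L-proline, against 171, 172 and 164 FPKM in PBS, which is -1.01 ± 0.09 on the log2 scale (adjusted p = 0.000423, limma). No L-proline library came near the PBS range. Lbp, which presents bacterial lipopolysaccharide to Cd14, had 0.626 ± 0.165 FPKM in L-proline and 2.00 ± 0.512 FPKM in PBS (-0.88 ± 0.14, adjusted p = 0.00491). The complement factor B gene Cfb rose, at 18.4 ± 1.43 FPKM in L-proline and 12.0 ± 1.19 FPKM in PBS (0.58 ± 0.10, adjusted p = 0.00578). Serpina3g also fell by 0.69 (adjusted p = 0.00618), a gene picked out on seeing its values. C3, the central complement component, stood at 100.5 ± 11.4 FPKM in L-proline and 112 ± 11.7 FPKM in PBS and did not pass (adjusted p = 0.326).

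In the interleukin 1 list 12 of 25 genes were tested, and 1 rose, 2 fell and 9 did not pass. This was 25% called, beside 19.6% of all genes tested, a difference that was not tested. Il33, an alarmin of the interleukin 1 family held in the nuclei of stromal cells, had 112, 80.7 and 62.5 FPKM in L-proline, against 225, 157 and 199 FPKM in PBS. All L-proline libraries were lower, with a difference of -1.20 ± 0.21 on the log2 scale (adjusted p = 0.00674, limma). Myd88, the adaptor of interleukin 1 and Toll-like receptors, rose (14.0 ± 1.82 FPKM in L-proline, 9.71 ± 0.595 FPKM in PBS; 0.48 ± 0.10, adjusted p = 0.0152). Sigirr, a receptor that damps this pathway, fell narrowly (-0.42 ± 0.12, adjusted p = 0.0444) and passed in 4 of 14 alternatives (0.0452 to 0.162). The receptor Il1r1, on which the Il1rn product acts, was 11.7 ± 1.26 FPKM in L-proline and 14.2 ± 1.68 FPKM in PBS (adjusted p = 0.144). Its accessory chain Il1rap had 1.73 ± 0.710 FPKM in L-proline and 3.08 ± 0.567 FPKM in PBS (adjusted p = 0.0556). Il1b was backed by 1 to 2 fragments per library in L-proline and 1 to 5 in PBS. Without PBS 1 or without PBS 3 the list had 1 call, as Myd88 (adjusted p 0.0668 and 0.0694; 0.00848 to 0.0694 over the alternatives) and Sigirr missed the threshold.

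Of 16 tested genes of the interleukin 6 pathway, Socs3 fell and 15 did not pass (6.25% called, beside 19.6% of all genes tested, a difference that was not tested), with a median log2 fold change of -0.10. Socs3, the STAT3-induced inhibitor of interleukin 6 signalling, stood at 36.0, 40.9 and 42.4 FPKM in L-proline, against 50.3, 56.8 and 51.3 FPKM in PBS (-0.40 ± 0.09, limma, adjusted p = 0.0157). Its call was lost without PBS 2 (adjusted p = 0.0536) and without PBS 3 (0.0593; 0.00903 to 0.0593 over the alternatives). Stat3 was 64.1 ± 4.61 FPKM in L-proline and 62.1 ± 1.73 FPKM in PBS (adjusted p = 0.704, with a change of sign without L-proline 3), and Il6st 46.7 ± 2.93 FPKM in L-proline and 51.0 ± 2.78 FPKM in PBS (adjusted p = 0.277). Clcf1 and the kinase gene Jak2 missed the threshold narrowly (adjusted p = 0.0524 and 0.0532), and Osmr did not pass (0.0905). The list had 5 calls without L-proline 1, 3 without L-proline 2, 2 without PBS 2 and, by limma, 0 without PBS 3, where 3 of 16 had an unadjusted p under 0.05.

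Transcription factors and feedback genes split in direction, with 3 of 19 rising and 2 falling. This was 26.3% called, beside 19.6% of all genes tested, a difference that was not tested. Tsc22d3, a glucocorticoid-induced inhibitor of inflammation, rose to 19.7, 19.5 and 21.4 FPKM in L-proline, against 10.8, 9.17 and 9.32 FPKM in PBS (0.98 ± 0.09, limma, adjusted p = 0.000481). Tnfaip3, a gene that NF-κB induces and whose ubiquitin-editing product restrains it, fell to 6.74, 6.65 and 6.19 FPKM in L-proline, against 11.4, 10.7 and 11.5 FPKM in PBS (-0.70 ± 0.08, adjusted p = 0.00111). Both separated the groups clearly. Atf3, a stress-induced factor, rose (6.15 ± 1.06 FPKM in L-proline, 3.05 ± 0.446 FPKM in PBS; 0.82 ± 0.13, adjusted p = 0.00565), and Irf1 rose as well (0.27 ± 0.07, adjusted p = 0.0340, picked out on seeing its values; 0.0245 to 0.1302 over the alternatives, lost without L-proline 3, PBS 1, PBS 2 or PBS 3). Cebpd, the C/EBP factor most tied to the acute phase, fell (51.3 ± 4.62 FPKM in L-proline, 66.0 ± 2.48 FPKM in PBS; -0.36 ± 0.08, adjusted p = 0.0202). Cebpb was 172 ± 24.9 FPKM in L-proline and 154 ± 4.17 FPKM in PBS and did not pass (adjusted p = 0.326). Rela, Nfkb1 and Nfkbiz, the NF-κB cofactor needed for Lcn2 induction, did not pass either (adjusted p = 0.421, 0.738 and 0.0744), and the near-0 difference of Nfkb1 changed sign without L-proline 2. Without PBS 1, PBS 2 or PBS 3 the list had 3 calls, and Cebpd missed the threshold each time (adjusted p 0.0563, 0.0641 and 0.0865; 0.00883 to 0.0865 over the alternatives).

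Regulators of Il6 mRNA stability included 2 that fell among 11 tested. This was 18.2% called, close to the 19.6% of all genes tested, so the count says nothing particular to the list. Hnrnpd, whose protein binds AU-rich elements, had 9.05, 11.6 and 8.83 FPKM in L-proline, against 15.7, 16.1 and 16.4 FPKM in PBS (-0.67 ± 0.11, limma, adjusted p = 0.00507). Khsrp, which promotes decay of such transcripts, fell by 0.31 ± 0.07 (adjusted p = 0.0232), a call lost under median-of-ratios scaling and without PBS 1, PBS 2 or PBS 3 (0.0182 to 0.0963 over the alternatives), which leaves 1. Zc3h12a, the nuclease that degrades Il6 mRNA, was 20.8 ± 1.40 FPKM in L-proline and 21.1 ± 1.92 FPKM in PBS (adjusted p = 0.933), a difference whose sign turned under both other scalings and without L-proline 1 or PBS 2.

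Leukocyte adhesion genes that passed all fell, 6 of 12 tested, with a median log2 fold change of -0.32, and with no filter 6 of 20 were lower and 1 higher. The share called of those tested was 50%, beside 19.6% of all genes tested, a difference that was not tested. Ezr, a linker between membrane proteins such as Vcam1 and Icam1 and the actin cytoskeleton, was 45.9, 45.2 and 50.3 FPKM in L-proline, against 74.6, 74.9 and 69.7 FPKM in PBS (-0.62 ± 0.07, limma, adjusted p = 0.00132). Alcam, an adhesion molecule of the same immunoglobulin superfamily, was 15.0 ± 3.25 FPKM in L-proline and 31.7 ± 4.73 FPKM in PBS (-1.04 ± 0.17, adjusted p = 0.00496). Its relative Mcam had 0.754 ± 0.201 FPKM in L-proline and 2.59 ± 0.651 FPKM in PBS (-1.02 ± 0.15, adjusted p = 0.00392). The junction molecule Jam2 fell by 0.62 ± 0.10 (adjusted p = 0.00485). Cd44 and F11r, picked out on seeing their values, also fell (adjusted p = 0.0298 and 0.0300). The Cd44 call was lost without L-proline 2, L-proline 3, PBS 1 or PBS 3 (0.00481 to 0.117 over the alternatives). That of F11r was lost without L-proline 2 or any PBS library and under both other scalings (0.0276 to 0.129). Integrin partners differed in level. Itga4, the α chain of the Vcam1 receptor, had 0.0584 ± 0.0265 FPKM in L-proline and 0.0700 ± 0.00956 FPKM in PBS, and Itgal had 0.120 ± 0.0435 FPKM in L-proline and 0.134 ± 0.0291 FPKM in PBS. Itgb2, which pairs with Itgal, lay just under the filter at 1.23 ± 0.0749 FPKM in L-proline and 0.764 ± 0.0365 FPKM in PBS, higher in every L-proline library. Itgb7 was 1.69 ± 0.189 FPKM in L-proline and 1.64 ± 0.152 FPKM in PBS, with overlapping groups and a sign that turned without L-proline 2, L-proline 3 or PBS 3. Itgb1, which pairs with Itga4, was abundant at 231 ± 20.7 FPKM in L-proline and 260.5 ± 7.88 FPKM in PBS (adjusted p = 0.146).

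Receptors and partners of the acute phase proteins gave 1 rise and 2 falls among 13 tested. This was 23.1% called, beside 19.6% of all genes tested, a difference that was not tested. Has2, the synthase of hyaluronan, the matrix that the Ptx3 protein helps to organize, had 19.9, 17.9 and 11.2 FPKM in L-proline, against 36.9, 29.4 and 37.5 FPKM in PBS (-1.07 ± 0.20, limma, adjusted p = 0.00847). Fgf2, a growth factor that the Ptx3 protein binds, had 1.02 ± 0.244 FPKM in L-proline and 2.26 ± 0.359 FPKM in PBS (-0.69 ± 0.13, adjusted p = 0.00857). Ly96, a subunit of the lipopolysaccharide receptor, rose (8.79 ± 1.70 FPKM in L-proline, 4.97 ± 0.494 FPKM in PBS; 0.70 ± 0.13, adjusted p = 0.00963). The Lcn2 receptor genes Slc22a17 and Lrp2 and the haptoglobin receptor gene Cd163 had group means of at most 0.145 FPKM. Over the union of the 7 lists, 6 of 92 tested genes rose and 19 fell, 27.2% in all, beside 19.6% of all genes tested (7.50% higher, 12.1% lower), a difference that was not tested, and the count was 17 to 34 when a library was left out.

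**Figure D4:**
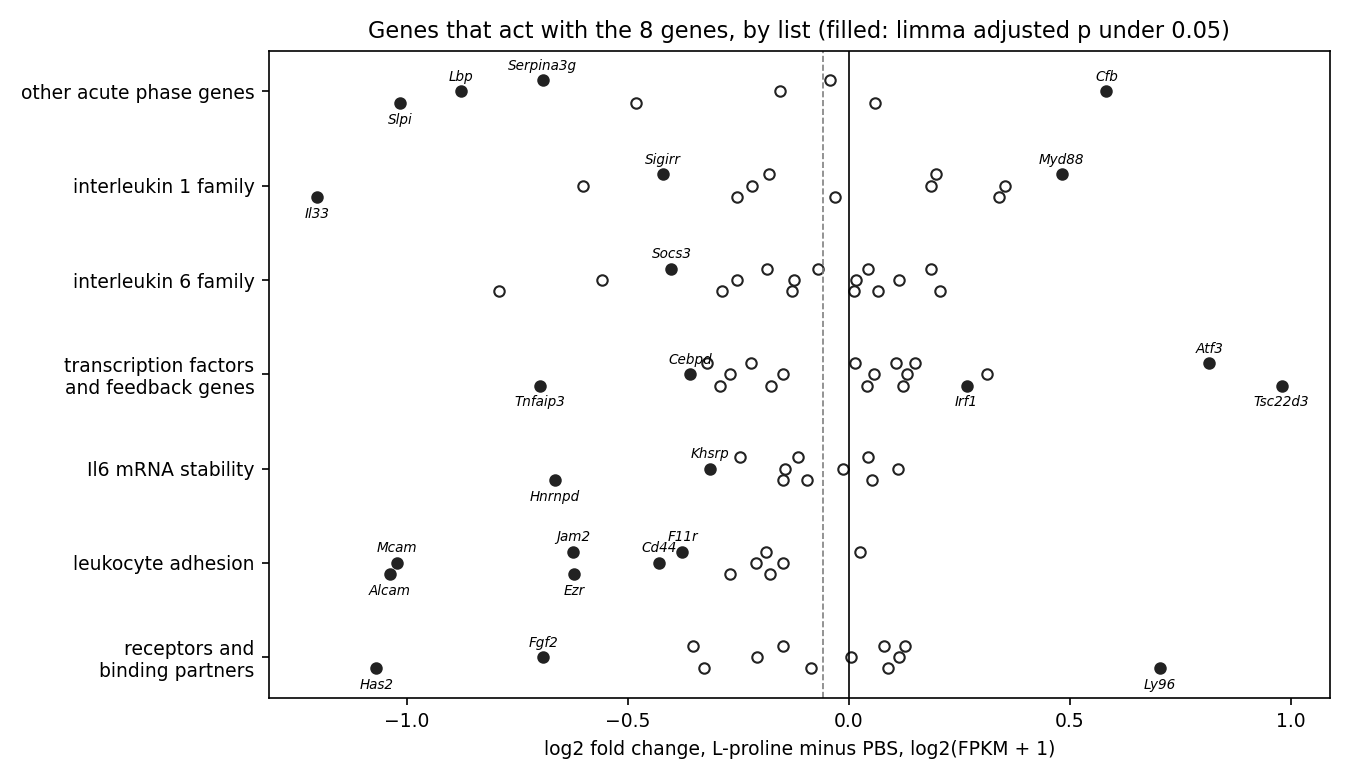
Log2 fold change, L-proline minus PBS, of the tested genes of 7 lists with 1 gene left out, each point a gene, filled and named where limma's adjusted p was under 0.05. The dashed line is the median of all genes tested, -0.06. Filled points lie left of 0 for 6 leukocyte adhesion genes and on both sides for the transcription factors.

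Endothelial, neutrophil, macrophage and hepatocyte markers were low, while the fibroblast markers given above were abundant, as were some pericyte and smooth muscle markers. Of 11 endothelial markers 6 were listed, none with a mean of 1 FPKM, and their sum was 1.22 to 1.32 FPKM in L-proline and 1.24 to 1.31 FPKM in PBS. Of 13 neutrophil markers 6 were listed, summing to 12.8 to 15.3 FPKM in L-proline and 11.2 to 13.8 FPKM in PBS, nearly all from Camp. Of the other 5, Mmp9 had 135, 132 and 172 fragments in L-proline and 82, 42 and 67 in PBS, and Mmp8 had 12, 2 and 4 in L-proline and 1, 0 and 1 in PBS, both higher in every L-proline library. S100a8 had 0, 2 and 0 fragments in L-proline and 7, 10 and 2 in PBS, and Elane 1 to 3 in L-proline and 0 to 6 in PBS. S100a9 was seen in PBS 2 alone, at 0.425 FPKM, and 1 library does not fix its fragment count. Macrophage markers (7 of 15 listed) summed to 6.80 to 8.01 FPKM in L-proline and 4.70 to 5.67 FPKM in PBS. Cd68 and Lyz2 made up most of this sum, which was higher in every L-proline library. Cd68 (mean 5.19 FPKM in L-proline, 3.17 FPKM in PBS) and the barely detected Cx3cr1 were higher without overlap. Lyz2, Csf1r, Aif1, Mrc1 and Cd163 overlapped between the groups. The part of this sum in the results was not tested. The 2 hepatocyte markers listed of 10, Apob and Cps1, summed to at most 0.0855 FPKM in any library.

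Other marker lists moved beside the genes. Of 9 mesothelial markers 4 were listed, and their sum was 26.3 to 27.5 FPKM in L-proline and 51.2 to 52.6 FPKM in PBS, carried by Msln (mean 20.2 FPKM in L-proline, 38.0 FPKM in PBS) and Krt19 (6.38 FPKM in L-proline, 13.1 FPKM in PBS). This was lower in every L-proline library, as were Lcn2, Hp, Il1rn, Ptx3 and Vcam1, and its part in those values was not tested. The cardiomyocyte and fibroblast sums given above also separated the groups, in opposite directions, and their part was not tested. Pericyte and smooth muscle markers (8 of 10 listed) summed to 857 to 1047 FPKM in L-proline and 939 to 1053 FPKM in PBS. Most of this was Acta2 (mean 826 FPKM in L-proline, 850 FPKM in PBS), followed by Tagln and Notch3. Rgs5, Vtn and Myh11 had group means of at most 0.0961 FPKM. Adipocyte markers (2 of 8 listed) summed to 3.88 to 5.19 FPKM in L-proline and 7.85 to 8.71 FPKM in PBS. T and NK cell markers (2 of 12) summed to 0.491 to 0.550 FPKM in L-proline and 0.240 to 0.537 FPKM in PBS, and B cell markers (2 of 6) to 0.358 to 0.507 FPKM in L-proline and 0.166 to 0.233 FPKM in PBS. The adipocyte and B cell sums did not overlap between the groups, and their part was not tested.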

How the data were processed

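Gene expression was measured by RNA sequencing of polyadenylated RNA in 6 libraries, 3 L-proline and 3 PBS, grouped by sample title. The authors deposited 1 table of FPKM values, per the file headers. HISAT2, HTSeq 0.13.5 and GRCm39 appear in the submitters' processing notes without a role, and the gene model, strand setting and choice of listed genes are not given in the sources used here. FPKM depends on the gene model and on a library's other abundant genes.

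Library totals were solved from the steps of 13 mitochondrial genes, and each gene's fragments from the smallest length that made its 6 values whole. That length can be too short for a gene seen in 1 library, and its fragments are then too few. For the 10500 genes whose mean FPKM reached 1, log2(FPKM + 1) was compared two-sided by limma 3.58.1 (R 4.3.3) using moderated variances with a trend, and p was adjusted over all of them by Benjamini-Hochberg, with a threshold of 0.05. Such fold changes understate the change of low genes. Recovery and test were checked on simulated data. The words rose and fell mark genes past that threshold. Alternatives were other pseudocounts, filters and scalings, a robust variance model, limma-voom on recovered fragments, a replicate block and leaving out each library.

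The 8 genes and the lists were chosen with earlier results of these data known, so no p is given for the 8, and the lists are described by counts and medians. The rule named up to 4 tested genes of each list, by smallest unadjusted p, and the 3 genes most like each of the 8. Every other list gene given was picked for its level or role with its values already seen. Symbols were looked up in a RefSeq table for GRCm38.p6, which held 14185 of the 14408, and 128 of 150 list genes were in the deposited table. The values of 1 list gene are not reported here, though counts include it. Counting limits cover counting error only.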

Additional observations from a re-analysis of the deposited data

How the results depend on the processing

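Over 15 alternative settings the log2 fold change ran from -1.86 to -1.56 for Lcn2, -1.63 to -1.36 for Hp, -0.97 to -0.76 for Ptx3, -0.61 to -0.38 for Il6, -0.78 to -0.69 for Vcam1 and 0.11 to 0.48 for Saa3, each within the spread between replicates. Il1rn moved beyond it, to -1.78 with a pseudocount of 0.1, -1.62 with 0.5 and -1.82 with limma-voom. Icam1 entered the fit with no filter only. The count of genes called was 874 to 2770 when a library was left out, and of listed pathway genes 17 to 34. Other acute phase genes gave 9 calls with no filter (4 higher, 5 lower), against 5 (1 higher, 4 lower), interleukin 6 pathway genes 3 with a minimum of 5 FPKM or the replicate block and 2 with quantile normalization, against 1, and Il6 mRNA stability genes 1 with median-of-ratios scaling, against 2. Over the other named genes, 564 values kept direction and side of the threshold, 14 newly passed, 35 no longer passed and 9 turned sign, all 9 far from the threshold. These were Zc3h12a, at 0.0253 with quantile normalization, 0.0395 with median-of-ratios scaling and -0.0556 to 0.0580 when a library was left out, Stat3 at -0.0133 to 0.0834, Nfkb1 at -0.0214 to 0.083 and Itgb7 at -0.00525 to 0.0845 when a library was left out. The cause was not tested. The median of all genes moved by under 0.1 (log2) with scaling. Same-numbered libraries of the groups deviated together for 2 of 3 numbers (correlations 0.65, 0.42 and -0.35 across genes). Differently numbered libraries ran from -0.75 (L-proline 1 with PBS 2) to 0.53 (L-proline 3 with PBS 2), so some also deviated together. Over 3 libraries per group these values cannot settle whether the numbers pair the libraries. With a replicate block 2383 genes and 30 pathway genes were called, and 6 of the 8 genes as before. Depth limits Icam1, which rested on 3 to 26 fragments per library.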

Other observations

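Several related genes had a mean below 1 FPKM and no test, so their values are given alone. The liver-type serum amyloid genes Saa1 and Saa2, near-identical copies whose fragments could be divided wrongly, had 13, 14 and 19 fragments for Saa1 in L-proline and 7, 5 and 9 in PBS. Saa2 had 13, 29 and 27 fragments in L-proline and 9, 9 and 4 in PBS. Both were far below Saa3, and all L-proline libraries were higher. The complement gene C4b had 74, 50 and 85 fragments in L-proline and 19, 14 and 20 in PBS. Tnf, the cytokine that induces Vcam1 and Icam1 in many cells, had 3, 4 and 2 fragments in L-proline and 6, 18 and 12 in PBS. Il1a, which signals through the receptor that the Il1rn product blocks, had 53, 12 and 35 fragments in L-proline and 96, 60 and 83 in PBS. The endothelial adhesion gene Pecam1 had 9, 6 and 6 fragments in L-proline and 2, 1 and 3 in PBS. Among the 6 endothelial markers listed, Pecam1 was the only 1 whose groups did not overlap. Cdh5, Egfl7, Flt1, Tek and Vwf overlapped. All 6 genes of this paragraph were picked out on seeing their values, and each had groups that did not overlap. Among tested genes 40.1% did not overlap. Of other list genes below 1 FPKM, Orm2, Orm3, Saa4, Il11, Nlrp3 and Selp overlapped. Steap4 and Irak3 were lower in L-proline without overlap, and Il18bp and Il1rl1 higher. Nothing is read from this choice of genes.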
